A study of Mus musculus with 12 samples.

Results

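The proteasome genes were taken as the gene symbols of the deposited table that begin with Psma, Psmb, Psmc, Psmd, Psme, Psmf or Psmg followed by a digit. This rule on names took 41 of 22264 symbols and 200 of 126464 intervals, and no pseudogene symbol was among them. Of the 41 symbols, 38 averaged 10 or more scaled reads per library and were tested, and Psma2, Psmd3 and Psme4 were not. H3K27ac, the acetylated form of histone H3 that marks active promoters and enhancers, was measured by ChIP-seq in 4T1 cells, an established mouse mammary carcinoma line of wild-type genotype. For 48 h the cells were given vehicle or 5 mM acetate, either alone, on top of 50 µM etomoxir, or on top of 50 µM etomoxir together with 50 µM SB204990. The doses were the same throughout, and each of the 6 treatments had 2 libraries. SB204990 was not given alone in the groups used here. Histone acetylation draws on acetyl-CoA, which cells can make from acetate. Etomoxir blocks the entry of long-chain fatty acids into mitochondria, and SB204990 blocks the making of acetyl-CoA from citrate. The study used these treatments to ask how the acetyl-CoA supply relates to H3K27ac. The 12 libraries carry one of a pair of name suffixes, called set 1 and set 2 below, but no label explains the suffix or tells whether the libraries came from separate cultures, so p-values measure only the spread between these libraries.

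Values are reads per interval multiplied by a factor of the library that the authors made from a human chromatin spike-in, here called scaled values. Reads in intervals ranged from 7179165 to 16676442 per library. The etomoxir + SB204990 library of set 2 had the fewest reads and a factor of 1, and it stood apart. The intervals over proteasome gene starts described below held 0.232% of its reads in intervals, compared with 0.256% to 0.28% in the other 11. The highest factor was 1 in set 1 and also 1 in set 2, so the values of the sets may be on scales fixed separately. The label of the cells was checked against markers. All 6 carcinoma epithelium markers (Epcam, Krt8, Krt18, Krt19, Cdh1 and Cldn4) had an interval over a start, and the leukocyte markers (4) and hepatocyte markers (2) had none. Krt8 and Krt18 had the same mean scaled value over their starts (4048), and Epcam had 404. Among fibroblast markers 1 of 3 (Pdgfra, with a mean scaled value of 191 there) had a start interval. Among endothelial markers it was 1 of 3 (Pecam1, with 12.1).

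The proteasome is the protease that degrades proteins tagged with ubiquitin. Its 20S core is built from rings of alpha subunits, which gate the entry, and rings of beta subunits, of which Psmb5, Psmb6 and Psmb7 encode the constitutive catalytic ones. The 19S regulator binds ubiquitin, removes it and unfolds the substrate with a ring of ATPases (the Psmc genes) and non-ATPase subunits (most Psmd genes). Interferon replaces the catalytic subunits with those encoded by Psmb8, Psmb9 and Psmb10 to form the immunoproteasome, which favours peptides for antigen presentation, while Psma8 belongs to the testis and Psmb11 to the thymus. Psme genes encode other activators, Psmf1 an inhibitor, and Psmg1 to Psmg4, Psmd5, Psmd9 and Psmd10 encode assembly chaperones. The naming rule also took Psmc3ip, which encodes a meiotic recombination factor and not a subunit.

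Promoter windows of 300 bases around the RefSeq start (build GRCm38.p6, the same assembly as mm10) were found for 42 of the 50 protein-coding genes that the naming rule takes in the GENCODE M21 annotation. They were searched on both strands for the antioxidant response element core TGACNNNGC, which the proteasome gene activator NRF1 (Nfe2l1) binds, and for CCAAT, the site of NF-Y. The first was in 6 of them (14.3%), namely Psmb5, Psmb6, Psmc6, Psmd9, Psmd12 and Psme4, and in 14% of the 27025 genes with a window. CCAAT was in 15 (35.7%), compared with 41.1% of all. No window of the family held both, so matches of one motif do not overlap those of the other. A match describes these letters only. The 6 windows below are shown because the results turn on their genes: Psmb5 and Psmb6 are constitutive catalytic subunits with a TGACNNNGC match, Psmb8 and Psmb9 are immunoproteasome subunits, Psma2 lies back to back with a neighbour whose symbol its interval carries, and Psmd1 had the highest density among starts that carry their own symbol. Each runs 5′ to 3′ on the strand of the gene, and capitals mark TGACNNNGC or CCAAT or their reverse complements.
Psmb5 (chr14:54617946-54618245, minus strand): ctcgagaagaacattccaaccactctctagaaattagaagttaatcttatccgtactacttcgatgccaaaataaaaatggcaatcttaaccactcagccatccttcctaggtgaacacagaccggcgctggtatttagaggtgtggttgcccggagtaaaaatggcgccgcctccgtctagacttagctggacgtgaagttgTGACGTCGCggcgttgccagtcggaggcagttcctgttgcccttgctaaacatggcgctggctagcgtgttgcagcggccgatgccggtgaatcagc
Psmb6 (chr11:70525107-70525406, plus strand): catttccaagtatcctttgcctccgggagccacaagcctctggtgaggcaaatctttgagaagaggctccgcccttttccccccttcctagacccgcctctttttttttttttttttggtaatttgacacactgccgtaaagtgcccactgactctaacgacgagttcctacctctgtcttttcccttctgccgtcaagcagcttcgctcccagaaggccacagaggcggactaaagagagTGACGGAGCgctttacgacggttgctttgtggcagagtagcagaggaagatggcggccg
Psmb8 (chr17:34197945-34198244, plus strand): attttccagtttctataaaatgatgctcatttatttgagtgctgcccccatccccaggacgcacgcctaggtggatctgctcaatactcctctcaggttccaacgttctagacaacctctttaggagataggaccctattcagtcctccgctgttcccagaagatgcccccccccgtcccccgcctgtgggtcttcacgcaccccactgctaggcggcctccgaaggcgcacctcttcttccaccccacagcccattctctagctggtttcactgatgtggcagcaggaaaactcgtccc
Psmb9 (chr17:34187281-34187580, minus strand): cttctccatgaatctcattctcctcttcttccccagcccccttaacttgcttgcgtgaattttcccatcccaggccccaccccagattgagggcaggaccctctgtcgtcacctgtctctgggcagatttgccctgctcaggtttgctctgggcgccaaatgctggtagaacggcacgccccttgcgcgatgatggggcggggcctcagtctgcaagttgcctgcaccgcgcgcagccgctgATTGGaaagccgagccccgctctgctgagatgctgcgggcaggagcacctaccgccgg
Psma2 (chr13:14612992-14613291, plus strand): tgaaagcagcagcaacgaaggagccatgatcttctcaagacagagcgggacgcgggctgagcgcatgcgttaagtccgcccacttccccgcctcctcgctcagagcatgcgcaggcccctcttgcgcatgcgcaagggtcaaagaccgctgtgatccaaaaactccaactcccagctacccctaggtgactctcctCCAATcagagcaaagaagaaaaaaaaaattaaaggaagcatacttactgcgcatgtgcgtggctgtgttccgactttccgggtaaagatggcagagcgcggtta
Psmd1 (chr1:86064369-86064668, plus strand): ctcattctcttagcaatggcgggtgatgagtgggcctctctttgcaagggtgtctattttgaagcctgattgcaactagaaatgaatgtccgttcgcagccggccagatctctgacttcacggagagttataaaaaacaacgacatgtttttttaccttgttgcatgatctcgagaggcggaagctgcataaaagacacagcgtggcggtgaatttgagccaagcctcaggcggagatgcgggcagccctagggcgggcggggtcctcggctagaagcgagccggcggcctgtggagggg
Counted from 1 at the 5′ end, TGACNNNGC spans bases 204 to 212 of the Psmb5 window and 242 to 250 of the Psmb6 window. CCAAT spans bases 197 to 201 of the Psma2 window, and its reverse complement bases 243 to 247 of the Psmb9 window. The Psmb8 and Psmd1 windows held neither. All 6 windows lay inside an H3K27ac interval.

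H3K27ac was found over the starts of nearly the whole family. Of the 50 coding genes, 47 (94%) had an interval covering an annotated start, compared with 54.7% of 21924 coding genes (12002). The 3 without one were Psma8, Psmb11 and Psme2b, so the testis and thymus subunits were among them. No start interval was shared between members of the family. These intervals had a median length of 5326 bp where they carried the member's own symbol, while the median was 857 bp over all 200 member intervals and 715 bp over the whole table. By the authors' annotation 107 of the 200 lay in introns, 32 between genes, 27 in exons, 19 at transcription ends and 15 at promoters.

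The symbol in the table was often not that of the gene whose start the interval covered. This was so for 13 of the 47 starts, and for 31% of the covered starts over all coding genes. Of the 50 genes, 9 (Psma4, Psma5, Psmb3, Psmc2, Psmc3, Psmc5, Psmd8, Psme3 and Psme2b) had no row under their own name, although 8 of them had a start interval carrying another symbol. Several of these starts lie close to the start of a neighbour on the other strand. The start of Psmc2 lies 32 bases from that of Dnajc2 on the other strand, Psma5 59 bases from 1700010K24Rik, Psma2 75 bases from Mrpl32 and Psma4 208 bases from AY074887. Psmb9 kept its own symbol although the start of Tap1, a peptide transporter gene of antigen presentation, lies 211 bases away on the other strand, so the signal of both genes is a single value. Others lay inside broad intervals, such as Psmb3 in 70532 bp carrying Gm11614 and Psmd3 in 44266 bp carrying Csf3.

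Conversely, the named intervals of 7 members did not cover the member's own start. The value of Psmd12 came to 99.2% from a 20500 bp interval in an intron of another gene (ENSMUSG00000040430), 15955 bp before the start that the authors' annotation used. Psma8 had a sole interval of 4461 bp in an exon of ENSMUSG00000037013, 44133 bp before its start. Psma2, Psmd3 and Psme4 each had a single narrow interval (189, 570 and 242 bp), Psmb11 had a pair (353 and 505 bp), and Psmc3ip had 4 upstream ones. For this reason the sums per symbol, which follow the table's own names, are given beside the 47 start intervals, which follow the annotation.

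To compare levels between genes, the scaled value of each start interval was divided by its length. The density averaged over the 12 libraries ranged from 20.2 per kb at Psmd10, which encodes the chaperone gankyrin, to 104 per kb in the broad interval over Psmd3. Psmd1, the largest scaffold subunit of the 19S base, followed with 77.2, and then Psmd11 (70.4) and the ATPase gene Psmc1 (66.9). The lowest after Psmd10 were the activator gene Psme1 (25), Psmb6 (25.1) and Psmb9 (26.1). Of the other catalytic genes, Psmb5 had 30.7, Psmb7 30 and the inducible Psmb8 32 per kb, with Psmb10 at 41.7. In vehicle-treated cells Psmb5 had 25.8 per kb, Psmb6 18.4, Psmb8 20.8 and Psmb9 17.6.

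**Figure D1:**
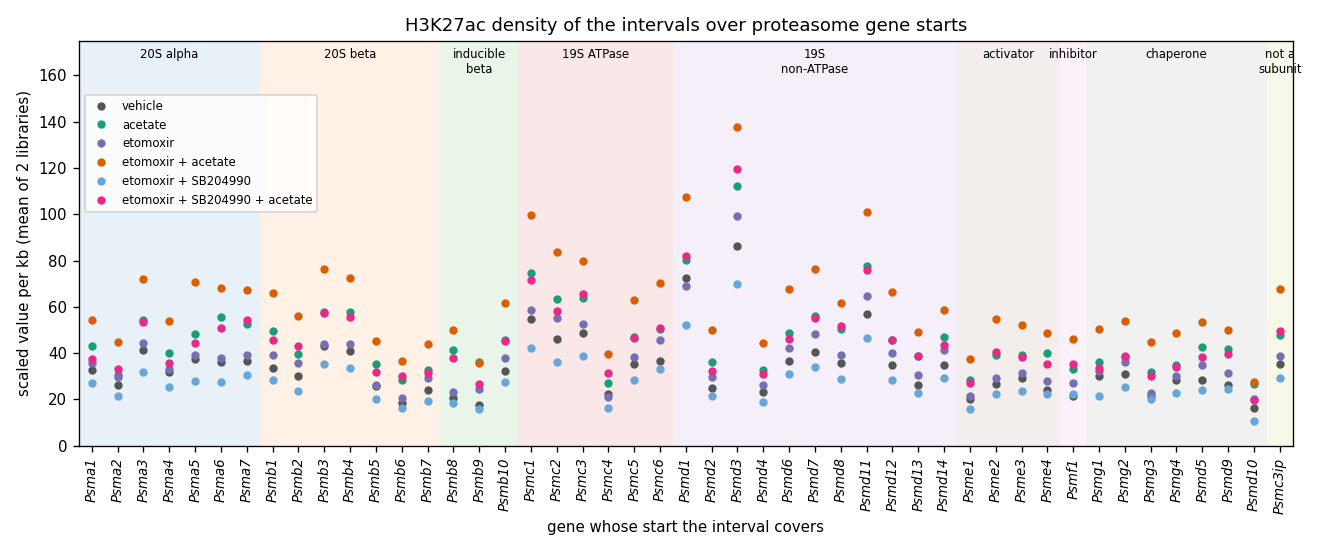
Scaled H3K27ac value per kb (vertical axis) of the interval over the start of each of 47 proteasome family genes (horizontal axis, grouped by role). Points are means of 2 libraries, 1 colour per treatment. Psmd3, Psmd1 and Psmd11 stand highest and Psmd10 lowest, and etomoxir + acetate is the top point at nearly every gene.

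Summed over the 41 genes, the scaled signal moved with acetate while the share of reads in intervals changed little. The sum was 11357 and 12949 with vehicle (set 1, then set 2, as in all pairs of values below) and 16895 and 17083 with acetate. It was 13982 and 13478 with etomoxir and 24012 and 22518 with etomoxir + acetate. It was 9054 and 11694 with etomoxir + SB204990 and 14624 and 18892 when acetate was added to both inhibitors. Both libraries with acetate were above both without it in each of the 3 backgrounds. The share that these 200 intervals held of a library's reads in intervals, in which the spike-in factor cancels, lay between 0.163% and 0.176% in the 12 libraries. Group means ran from 0.166% ± 0.0044 (SD, n = 2) with etomoxir + SB204990 to 0.175% ± 0.00108 with etomoxir + acetate. The share was slightly higher with acetate in every same-set pair. Over the start intervals it was instead lower with acetate in these pairs, except with both inhibitors in set 2.

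**Figure D2:**
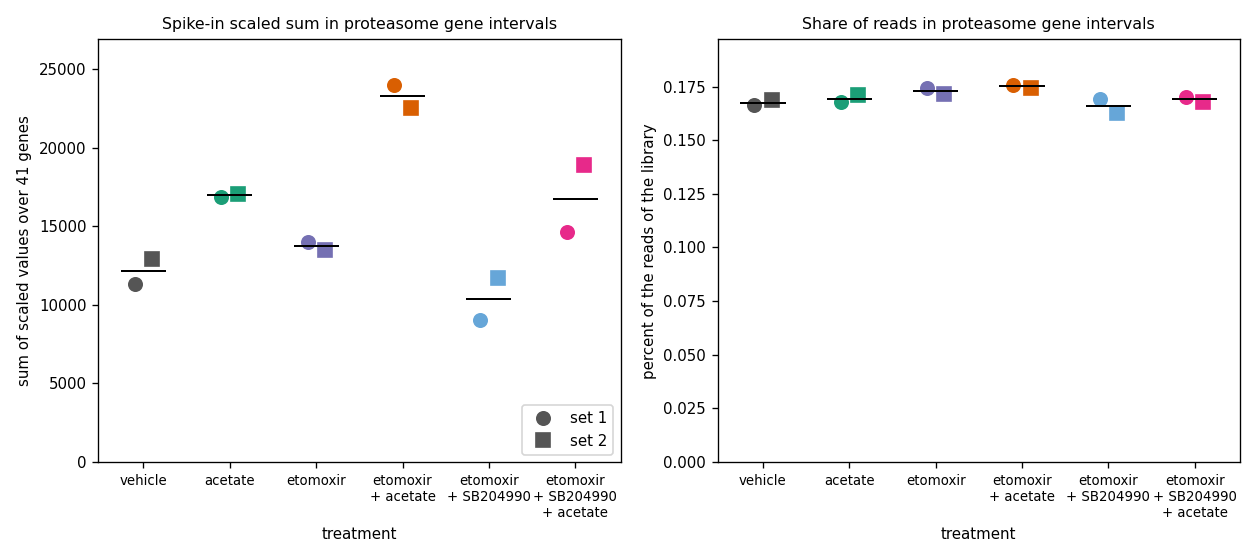
Sum of spike-in scaled values (left) and percent of the library's reads in all intervals (right) in the intervals of 41 proteasome genes, by treatment. Circles are set 1, squares set 2 and lines the mean of 2 libraries, and both vertical axes start at 0. The sums rise with acetate in each background, while the shares stay between 0.163% and 0.176%.

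Acetate was compared with its counterpart in each background by limma on log2(scaled sum + 1), a scale that understates the change of low genes, in 1 fit over all 19458 tested symbols. Averaged over the backgrounds, acetate raised 37 of the 38 tested members, and none fell. The exception was Psmb11. The background was 88.2% of all tested genes higher, and the median change was 0.65 on the log2 scale over the members, beside 0.63 over all genes. In 36 of 38 members acetate was higher in all 6 same-set pairs, compared with 84.2% of all genes, and Psma8 and Psmb11 were higher in 5 of 6. Between members and all genes the medians differed by 0.022. Where libraries were scaled to each other by median-of-ratios, which sets the typical gene to no change, 0 of 38 members passed in limma (1 at an unadjusted p under 0.05, as were 5.25% of all genes), with a median of 0.011 for the members and -0.0076 for all genes. If the factor was made from a percentage, the deposited values keep the sequencing depth of the library. Reads were therefore also divided by the library's reads in intervals, which stand in for depth. Such a divisor can also take up a change shared by all intervals. The spike-in factor was then applied, here called depth-corrected spike-in scaling. Then 0 passed as well (1 at an unadjusted p under 0.05, as were 3.15% of all genes), with a median of 0.45 (0.43 over all genes).

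By background, etomoxir + acetate vs. etomoxir raised 34 of 38 members (background 78.2%) with a median of 0.76 (0.79 over all genes). That count fell well below 34 without etomoxir + acetate set 1 or without etomoxir set 2, as given in the closing section. Etomoxir + SB204990 + acetate vs. etomoxir + SB204990 raised 33 (background 57.7%) with a median of 0.69 (0.64). With depth-corrected spike-in scaling 0 members passed in either comparison, and the medians were 0.80 (0.82 over all genes) and 0.27 (0.22). In the deposited values, the count of 33 became 0 without the etomoxir + SB204990 + acetate library of set 2 (0% of all genes) and 11 without the etomoxir + SB204990 library of set 1 (19.1%). Without inhibitors, acetate vs. vehicle called 0 members (background 0%) by limma, although 25 had an unadjusted p under 0.05 (42.9% of all genes), DESeq2 called 9 (19.1%), and limma called 8 with the set as a block (20.0%). All 38 were higher, as were 98.9% of all genes, with a median of 0.50 (0.48), or 0.27 (0.25) with depth-corrected scaling, and their lowest adjusted p was 0.101. The medians were 0.58 in set 1 and 0.38 in set 2. Without either etomoxir + SB204990 library, which enter this comparison only through the shared estimate of the spread, 29 members passed, with 61.1% of all genes without that of set 1 and 61.2% without that of set 2.

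Over the 47 start intervals the same comparisons passed more often. Acetate vs. vehicle raised 35 of 47 (background 68.9% of 11784 genes with a tested start interval), etomoxir + acetate vs. etomoxir 46 (background 94.3%) and etomoxir + SB204990 + acetate vs. etomoxir + SB204990 all 47 (background 92.8%). On average over backgrounds all 47 rose (background 99.2%), by 0.47 to 1.03 with a median of 0.63, beside 0.61 over all starts. In all 47 acetate was higher in 6 of 6 pairs, compared with 95.8% of all starts. This choice of intervals was added after the data were seen. Median-of-ratios scaling of the start intervals again left 0 called in every comparison.

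**Figure D3:**
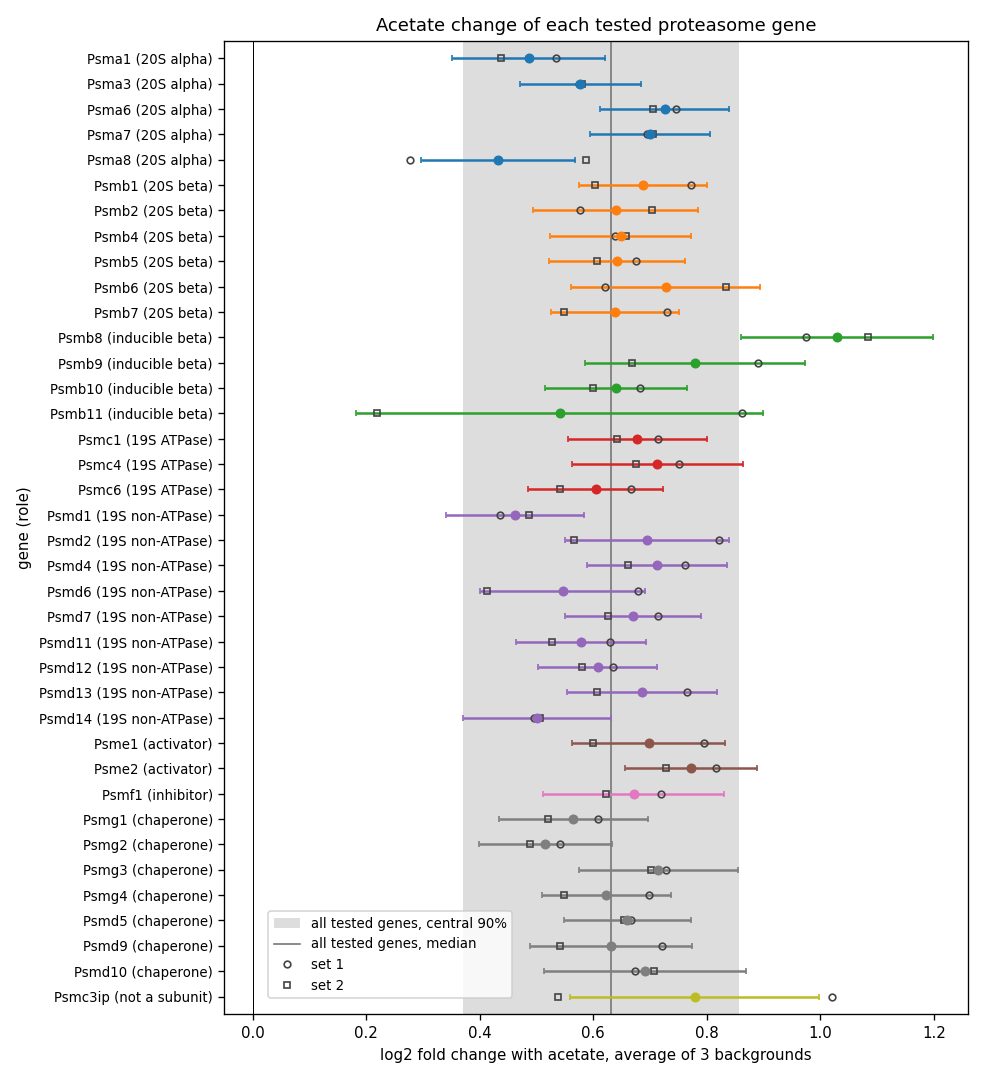
Log2 fold change with acetate, averaged over 3 backgrounds (horizontal axis), for each of 38 tested proteasome genes (vertical axis, role in brackets). Filled points with bars are the limma estimate ± SE, open circles and squares the change within set 1 and set 2, the grey band the central 90% of all tested genes and the grey line their median. Psmb8 alone lies right of the band, and the other genes lie within it.

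The inducible and tissue-restricted beta genes held both the largest acetate change and the one with the widest error. Psmb8 (beta5i), the inducible counterpart of Psmb5, had scaled sums of 61.2 and 59.4 with vehicle, 132 and 109 with acetate, 73.1 and 61.8 with etomoxir, 133 and 156 with etomoxir + acetate, 45.8 and 61 with etomoxir + SB204990, and 91.2 and 129 with etomoxir + SB204990 + acetate. Both acetate-treated libraries were above both counterparts in each background. So they were for 84.2% of all genes without inhibitors, 98.3% with etomoxir and 70.3% with both inhibitors. Its average acetate change was 1.03 (SE 0.17, limma adjusted p = 2.22e-05), a fold of 2.04, which was the highest of the 38 members and above that of 99.4% of all tested genes. It was 0.97, 1.09 and 1.02 in the backgrounds of no inhibitor, etomoxir and etomoxir + SB204990. After median-of-ratios scaling it was 0.39 (SE 0.14, limma adjusted p = 0.878), with an unadjusted p of 0.0155.
Psmb9 (beta1i) had 39.3 and 44.4 with vehicle, 86.9 and 89.6 with acetate, 58.9 and 59 with etomoxir, 88 and 89.3 with etomoxir + acetate, 27.9 and 53 with etomoxir + SB204990, and 55.6 and 71.1 with etomoxir + SB204990 + acetate. Its groups with and without acetate did not overlap in any background. Acetate was higher in this way for 84.2% of all genes without inhibitors, 98.3% with etomoxir and 70.3% with both inhibitors. The average change was 0.78 (SE 0.19, limma adjusted p = 7.60e-04), and no single background passed, with 1.06 (SE 0.33, limma adjusted p = 0.101) without inhibitors.
Psmb10 (beta2i) had 189 and 227 with vehicle, 310.3 and 283 with acetate, 251 and 239.9 with etomoxir, 395 and 404 with etomoxir + acetate, 162 and 197 with etomoxir + SB204990, and 261 and 328 with etomoxir + SB204990 + acetate, and it rose by 0.64 (SE 0.13, limma adjusted p = 8.45e-05) on average.
Psmb11, the thymus subunit with no interval over its start, was near the limit of the filter, which it passed through the etomoxir + acetate libraries, with 7.01 and 10.3 with vehicle, 9.05 and 12.9 with acetate, 9.14 and 11.5 with etomoxir, 25 and 20.2 with etomoxir + acetate, 4.38 and 13 with etomoxir + SB204990, and 9.06 and 9.54 with etomoxir + SB204990 + acetate. Its average change of 0.54 (SE 0.36, limma adjusted p = 0.154) did not pass, and the groups overlapped without inhibitors and with both inhibitors.

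Among the constitutive beta genes all 6 tested rose on average (background 88.2%), by 0.64 to 0.73, the narrowest range of any role group with more than 2 members. Psmb6 (beta1), the highest, had 75.3 and 87.9 with vehicle, 112 and 143 with acetate, 100.01 and 84.2 with etomoxir, 160 and 169 with etomoxir + acetate, 63.3 and 89 with etomoxir + SB204990, and 97.7 and 157 with etomoxir + SB204990 + acetate. Its change was 0.73 (SE 0.17, limma adjusted p = 3.64e-04).
Psmb7 (beta2), the lowest, had 982 and 1254 with vehicle, 1435 and 1563 with acetate, 1322 and 1294 with etomoxir, 2321 and 2203 with etomoxir + acetate, 797 and 1189 with etomoxir + SB204990, and 1419 and 1754 with etomoxir + SB204990 + acetate, and it changed by 0.64 (SE 0.11, limma adjusted p = 3.64e-05). Only 13.5% of its sum came from the interval over its start. A 19534 bp interval, 21279 bp from the start that the authors' annotation used, gave 48.3%.
Psmb5 (beta5), the subunit that proteasome inhibitor drugs bind, had 277 and 302 with vehicle, 369 and 383 with acetate, 314 and 289.8 with etomoxir, 601 and 539.5 with etomoxir + acetate, 203 and 268 with etomoxir + SB204990, and 325 and 402 with etomoxir + SB204990 + acetate. It rose by 0.64 (SE 0.12, limma adjusted p = 5.91e-05). The acetate groups lay above their counterparts in each background, as for 84.2%, 98.3% and 70.3% of all genes (no inhibitor, etomoxir, both inhibitors). Of its scaled sum about 43.9% came from the start interval, where the change was 0.62 (SE 0.11, limma adjusted p = 4.35e-08).

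The alpha genes, which form the outer rings of the core, had 5 tested members, and all 5 rose (background 88.2%), by 0.43 to 0.73. Psma6 was the highest with 1212 and 1435 with vehicle, 1816 and 2129.6 with acetate, 1453 and 1435 with etomoxir, 2602 and 2584 with etomoxir + acetate, 889 and 1315 with etomoxir + SB204990, and 1567 and 2131 with etomoxir + SB204990 + acetate. It rose by 0.73 (SE 0.11, limma adjusted p = 1.79e-05).
Psma8 was the lowest with 356 and 288 with vehicle, 501 and 373 with acetate, 378 and 399.7 with etomoxir, 484 and 467 with etomoxir + acetate, 304 and 216 with etomoxir + SB204990, and 301 and 486 with etomoxir + SB204990 + acetate, all from the interval far from its start described above. Its change was 0.43 (SE 0.14, limma adjusted p = 0.00532). In set 1 the value with all 3 agents was slightly below that with etomoxir + SB204990, and in set 2 it was well above it.
Psma2 was not tested, with sums of 2.34 and 0.792 with vehicle, 2.41 and 4.31 with acetate, 2.29 and 2.29 with etomoxir, 3 and 3.84 with etomoxir + acetate, 1.19 and 4 with etomoxir + SB204990, and 1.29 and 2.6 with etomoxir + SB204990 + acetate in its intronic interval. The interval over its start, which carries Mrpl32, held 147 and 156 with vehicle, 195 and 162 with acetate, 171 and 174 with etomoxir, 247 and 273 with etomoxir + acetate, 124 and 125 with etomoxir + SB204990, and 169 and 215 with etomoxir + SB204990 + acetate. There it rose by 0.47 (SE 0.11, limma adjusted p = 1.66e-05).

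In the 19S regulator, all 3 tested ATPase genes rose on average (background 88.2%), Psmc4 most and Psmc6 least. Psmc4 (Rpt3) had 122 and 153 with vehicle, 155 and 176 with acetate, 127 and 121 with etomoxir, 247 and 242 with etomoxir + acetate, 77.7 and 120 with etomoxir + SB204990, and 152 and 214 with etomoxir + SB204990 + acetate. The change was 0.71 (SE 0.15, limma adjusted p = 1.79e-04), with 0.27 (SE 0.26, limma adjusted p = 0.365) without inhibitors.
Psmc6 (Rpt4) had 218 and 249.6 with vehicle, 342 and 302 with acetate, 291 and 294 with etomoxir, 496 and 455 with etomoxir + acetate, 206 and 224 with etomoxir + SB204990, and 309 and 370.3 with etomoxir + SB204990 + acetate, and it rose by 0.60 (SE 0.12, limma adjusted p = 9.11e-05).
All 9 tested non-ATPase genes rose (background 88.2%), by 0.46 to 0.71. Psmd4 (Rpn10), a ubiquitin receptor, was the highest with 308 and 334 with vehicle, 431 and 479 with acetate, 359 and 341 with etomoxir, 681 and 615 with etomoxir + acetate, 213 and 321 with etomoxir + SB204990, and 395 and 493 with etomoxir + SB204990 + acetate. Its change was 0.71 (SE 0.12, limma adjusted p = 3.12e-05).
Psmd1 (Rpn2), a scaffold subunit, was the lowest with 279 and 303 with vehicle, 325 and 319 with acetate, 259 and 289.8 with etomoxir, 408 and 446 with etomoxir + acetate, 206 and 222 with etomoxir + SB204990, and 279 and 378 with etomoxir + SB204990 + acetate. The average change was 0.46 (SE 0.12, limma adjusted p = 0.00126), and without inhibitors it was 0.15 (SE 0.21, limma adjusted p = 0.536), so its vehicle and acetate groups lay close together.
Psmd3 (Rpn3) was not tested, with 4.21 and 7.13 with vehicle, 4.23 and 9.48 with acetate, 4 and 3.44 with etomoxir, 13 and 16.3 with etomoxir + acetate, 3.19 and 11 with etomoxir + SB204990, and 9.06 and 11.3 with etomoxir + SB204990 + acetate in its named interval. The interval over its start held 3974 and 3661 with vehicle, 5418 and 4532 with acetate, 4300.4 and 4468 with etomoxir, 6134 and 6053 with etomoxir + acetate, 3318 and 2868 with etomoxir + SB204990, and 4372 and 6217 with etomoxir + SB204990 + acetate, and there it rose by 0.54 (SE 0.10, limma adjusted p = 7.38e-08).

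The activators, the inhibitor and the chaperones rose as well. Psme1 and Psme2 encode the PA28 alpha and beta subunits, which interferon induces and which open the core without ubiquitin. Psme1 had 171 and 236 with vehicle, 281 and 295 with acetate, 225 and 207 with etomoxir, 407 and 349 with etomoxir + acetate, 134 and 183 with etomoxir + SB204990, and 238 and 304 with etomoxir + SB204990 + acetate, and its change was 0.70 (SE 0.13, limma adjusted p = 7.80e-05).
Psme2 had 355 and 364 with vehicle, 512 and 553 with acetate, 387 and 399.7 with etomoxir, 787 and 690.3 with etomoxir + acetate, 260.1 and 347 with etomoxir + SB204990, and 487 and 604 with etomoxir + SB204990 + acetate. With 0.77 (SE 0.12, limma adjusted p = 1.56e-05) it was the fourth highest of the 38 members.
Psme4 (PA200) was not tested, with 5.61 and 3.17 with vehicle, 4.83 and 3.45 with acetate, 4 and 1.15 with etomoxir, 5 and 2.88 with etomoxir + acetate, 1.19 and 3 with etomoxir + SB204990, and 5.82 and 2.6 with etomoxir + SB204990 + acetate in an intronic interval of 242 bp. Over its start, in an interval carrying Gm12100, it had 102 and 72.1 with vehicle, 153 and 135 with acetate, 104 and 96.8 with etomoxir, 192 and 157 with etomoxir + acetate, 94.4 and 66 with etomoxir + SB204990, and 111 and 142 with etomoxir + SB204990 + acetate, and it rose by 0.73 (SE 0.12, limma adjusted p = 1.98e-09).
Psmf1 (PI31) had 82.7 and 86.4 with vehicle, 132 and 117 with acetate, 109.7 and 102 with etomoxir, 195 and 180.5 with etomoxir + acetate, 66.1 and 100 with etomoxir + SB204990, and 105 and 154 with etomoxir + SB204990 + acetate. It rose by 0.67 (SE 0.16, limma adjusted p = 5.08e-04).
All 7 chaperone genes rose (background 88.2%), Psmg2 the least and Psmg3 the most. Psmg3 (PAC3) had 102 and 123 with vehicle, 158 and 177 with acetate, 127 and 112 with etomoxir, 241 and 229 with etomoxir + acetate, 96.8 and 114 with etomoxir + SB204990, and 151 and 167 with etomoxir + SB204990 + acetate, and its change was 0.71 (SE 0.14, limma adjusted p = 8.91e-05).
Psmg2 (PAC2) had 281 and 332 with vehicle, 406 and 390.3 with acetate, 367 and 371 with etomoxir, 567 and 547 with etomoxir + acetate, 245 and 278 with etomoxir + SB204990, and 339.6 and 444 with etomoxir + SB204990 + acetate, and it changed by 0.52 (SE 0.12, limma adjusted p = 3.44e-04).
Psmc3ip, which is no subunit, had 32.7 and 56.3 with vehicle, 61 and 72.4 with acetate, 60 and 48.7 with etomoxir, 116 and 96 with etomoxir + acetate, 25.1 and 63 with etomoxir + SB204990, and 60.8 and 77.2 with etomoxir + SB204990 + acetate. It rose by 0.78 (SE 0.22, limma adjusted p = 0.00223), as far as Psmb9.

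No member passed in a comparison of inhibitors on the sums per symbol. For etomoxir vs. vehicle 0 members were called (background 0.0154%), and 0 had an unadjusted p under 0.05 in limma (0.684% of all genes). DESeq2 and edgeR also called 0. The changes ranged from -0.13 (Psmc4) to 0.49 (Psmb9), and 36 of 38 were above 0 (82.3% of all genes), with a median of 0.21 (0.14 over all genes). With depth-corrected spike-in scaling the median turned to -0.0094 (-0.079 over all genes), and 17 of 38 were above 0 (27.4% of all genes). The medians were 0.33 in set 1 and 0.06 in set 2. Over the start intervals 0 of 47 were called (background 0.170%), again with 0 unadjusted (2.64% of all starts). Both etomoxir libraries were above both vehicle libraries for 26 members, compared with 40.2% of all genes, and 0 members showed the opposite, compared with 3.44%.

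For etomoxir + SB204990 vs. vehicle 0 members were called by limma (background 0.00514%), with 1 at an unadjusted p under 0.05 (4.24% of all genes), and DESeq2 and edgeR called 0. All 38 had negative changes, as had 78.2% of all genes, with a median of -0.22 (-0.18 over all genes), but with depth-corrected spike-in scaling the median was 0.052 (0.093 over all genes), with 24 of 38 above 0 (72.1% of all genes), and with total-sum scaling 19 of 38 were above 0 (59.0%). The medians were -0.33 in set 1 and -0.13 in set 2, where 9 members were above 0. Set 2 holds the etomoxir + SB204990 library that stood apart, and the result without it is given in the closing section. Both libraries were below both vehicle libraries for 14 members, compared with 25.5% of all genes. Over the start intervals 0 of 47 passed (background 0.0679%), with 9 at an unadjusted p under 0.05 (18.9% of all starts). The lowest of the sums was that of Psmd10, with -0.60 (SE 0.31, limma adjusted p = 0.777).

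For etomoxir + SB204990 vs. etomoxir, which isolates SB204990, limma called 0 (background 0%), with 15 at an unadjusted p under 0.05 (21% of all genes). All 38 had negative changes, as had 88.6% of all genes, from -0.91 (Psmd10) to -0.18 (Psmg3), with a median of -0.42 (-0.33 over all genes), whereas depth-corrected spike-in scaling gave 0.076 (0.16 over all genes) with 31 of 38 above 0 (88.5%). The median was -0.20 after median-of-ratios (-0.11 over all genes) and -0.068 after total-sum scaling (0.019 over all genes). Each scaling shifts members and all genes alike. In the deposited values both etomoxir + SB204990 libraries were below both etomoxir libraries for 33 members, compared with 47.1% of all genes. Without the etomoxir + SB204990 library of set 2, which stood apart, 30 of 38 passed and were lower (63.8% of all genes), and without that of set 1 it was 2 (1.15%). Within sets the median was -0.66 in set 1 and -0.18 in set 2, while over all genes it was -0.62 and -0.0068. Over the start intervals 30 of 47 fell (background 42.7%), with a median of -0.46 (-0.41 over all starts). Psmd10 fell there by 0.91 on the log2 scale (SE 0.24, limma adjusted p = 0.0129), the most of the 47. Its values were 50.5 and 58.6 with vehicle, 88.1 and 93 with acetate, 61.7 and 74.4 with etomoxir, 97 and 89.3 with etomoxir + acetate, 41 and 31 with etomoxir + SB204990, and 62.1 and 72.9 with etomoxir + SB204990 + acetate. It was chosen after its values were seen. With median-of-ratios scaling none of the 47 passed, and the sum per symbol of Psmd10, -0.91 as deposited, was -0.69 (SE 0.33, limma adjusted p = 0.874).

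**Figure D4:**
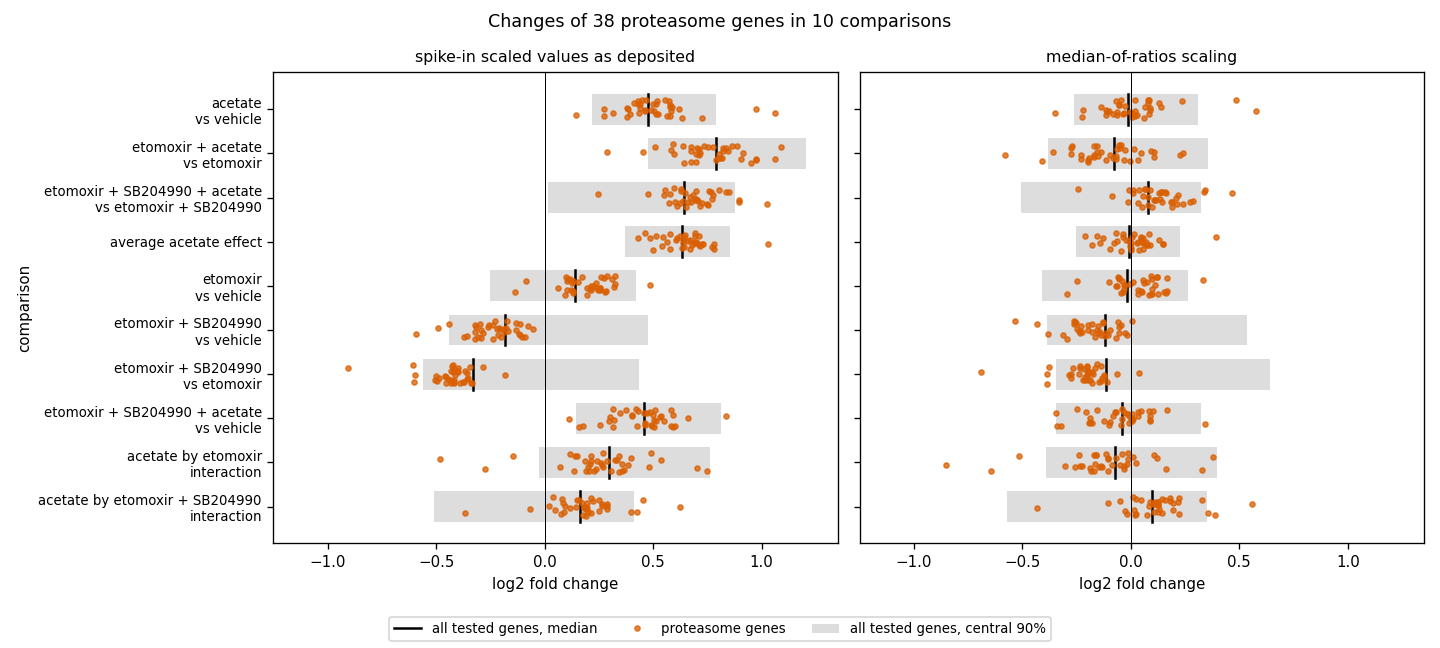
Log2 fold changes (horizontal axis) of 38 proteasome genes (orange points) in 10 comparisons (vertical axis), with values as deposited (left) and after median-of-ratios scaling (right). Grey bars are the central 90% of all tested genes and black lines their median; the orange points follow the black line in each row, and both move to near 0 in the acetate rows of the right panel.

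Cells given all 3 agents were also compared with vehicle. Etomoxir + SB204990 + acetate vs. vehicle called 0 members by limma (background 0.380%), with 18 at an unadjusted p under 0.05 (36.8% of all genes), DESeq2 called 8 (16.6%), and limma called 5 with the set as a block (14.3%). All 38 were higher, as were 98.4% of all genes, with a median of 0.47 (0.46 over all genes), and without either etomoxir + SB204990 library 25 passed (50.1% of all genes without that of set 1, 50.3% without that of set 2). After median-of-ratios scaling the median was -0.037 (-0.042 over all genes). Over the start intervals 27 of 47 rose (background 53.0%), with a median of 0.41. An interaction term then tested if acetate acted differently on top of the inhibitors. It called 0 members with etomoxir (background 0%; 0 at an unadjusted p under 0.05, with 0.159% of all genes). The median difference was 0.26 (0.30 over all genes), which median-of-ratios scaling turned to -0.11 (-0.075 over all genes) and total-sum scaling to -0.01 (0.027), while depth-corrected spike-in scaling gave 0.52 (0.56). It also called 0 with etomoxir + SB204990 (background 0%; 0 unadjusted, with 0.0565% of all genes), with a median of 0.19 (0.16). The median turned to -0.00272 (-0.029) with total-sum and to -0.000718 (-0.028) with depth-corrected scaling. DESeq2 and edgeR called 0 in both. The lowest difference with etomoxir was that of Psmb9, -0.48 (SE 0.47, limma adjusted p = 0.774).

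Other genes of the ubiquitin-proteasome pathway were described from a list of 30, of which 27 were in the table and 26 tested. Averaged over backgrounds acetate raised all 26 (background 88.2%), by a median of 0.59, beside 0.63 over all genes. These included Pomp, the core assembly factor, with 0.64, Nfe2l1, the transcription factor NRF1, with 0.60 and Adrm1, a ubiquitin receptor of the 19S, with 0.80. The value of Adrm1 came from intervals away from its start, with a mean scaled sum of 229, while the interval over its start carried another symbol and held 5692. Other tested genes of the list also had more over the start than under their symbol, so the count and median include such sums. Among them were Bag6 (1565 over the start, 28.7 under the symbol), Vcp (339 and 56.3), Ubqln1 (401 and 34.5) and Ubqln4 (7255 and 191). By background the list had 0 of 26 called for acetate vs. vehicle (background 0%), 23 higher for etomoxir + acetate vs. etomoxir (background 78.2%) and 21 higher when acetate was added to both inhibitors (background 57.7%). In the inhibitor comparisons and interactions 0 of 26 passed, with 13 at an unadjusted p under 0.05 for etomoxir + SB204990 vs. etomoxir (21% of all genes).

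The list of genes of interferon-linked antigen processing held 13, of which 10 were in the table and tested, while Tap1, Tapbp and Calr had no row of their own. Acetate raised all 10 on average (background 88.2%), by 0.44 (Erap1) to 0.80 (Tap2), with a median of 0.69. The interval over the start of Tap2 also carried another symbol, with a mean of 149 beside 40.7 under its own. The transactivator gene Nlrc5 had 0.70, B2m 0.70 and Irf1 0.63. All 10 were below Psmb8 at 1.03. For acetate vs. vehicle 0 of 10 passed (background 0%), 9 at an unadjusted p under 0.05 (42.9% of all genes). With etomoxir 9 rose (background 78.2%), as did 9 with both inhibitors (background 57.7%). In the inhibitor comparisons and interactions none of the 10 passed.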

How the data were processed

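H3K27ac ChIP-seq was analysed in 12 libraries of 4T1 cells. Per the methods of the study, the authors aligned reads to GRCh38 and mm10 merged into 1 reference with the nf-core/chipseq workflow, after adding 7.5% human chromatin. The deposited values are a signal: reads per interval multiplied by a spike-in factor that the authors derived from the percentage of human reads and divided by the highest factor, which is 1 in each set. Division by the factor gave whole reads for 100% of values in each library (tolerance 0.01). A factor from a percentage, multiplied with raw reads, would leave sequencing depth in the values. The human read counts were not among the values used here, so this was not checked. No input was subtracted, and how intervals were called is not given in the sources used here.

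Values were summed per symbol (22264) and tested with limma 3.58.1 (R 4.3.3, intensity trend) on log2(sum + 1) over 6 group means, for 19458 symbols with a mean of at least 10. Calls were made at an adjusted p under 0.05 (Benjamini-Hochberg, over all genes in 1 comparison). There were 10 comparisons. edgeR 4.0.16 and DESeq2 1.42.0 on the recovered reads were alternatives, and code was tested on simulated data. Start intervals cover a coding transcript start of GENCODE M21 (basic set). Named genes were the highest and lowest average acetate change per role, the inducible beta genes, Psme1, Psme2, Psmb5, Psmf1 and untested members. Members and lists were chosen with earlier results of these data known. Sequences are from RefSeq, build GRCm38.p6.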

Additional observations from a re-analysis of the deposited data

How the results depend on the processing

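In etomoxir + acetate vs. etomoxir, in etomoxir + SB204990 + acetate vs. etomoxir + SB204990 and in the average acetate effect, the members called went to 0 under median-of-ratios scaling, total-sum scaling, depth-corrected spike-in scaling and median-of-ratios scaling of the start intervals. By construction median-of-ratios and total-sum scaling set the typical genes or the totals of reads in intervals equal, and for depth-corrected scaling the cause was not tested. For acetate vs. vehicle the count of 0 became 9 with DESeq2 (19.1% of all genes tested in the same way, as for each percentage in brackets), 30 with only the libraries of the comparison (61.5%), 21 of 32 with only intervals that span the annotated start (54.1%) and 35 of 47 with the start intervals (68.9%). For etomoxir + SB204990 + acetate vs. vehicle it became 8 (16.6%), 0 (0.134%), 11 (38%) and 27 (53.0%), and for etomoxir + SB204990 vs. etomoxir it became 8 lower with spanning (17.5%) and 30 lower with start intervals (42.7%). With only the libraries of the comparison, etomoxir + SB204990 + acetate vs. etomoxir + SB204990 called 0. The causes were not tested.

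The suffix of the library names was tried as a replicate block. Deviations from the group means correlated at -0.22 to 0.60 between same-suffix libraries, so the suffix was not taken to pair them. The correlation was high for vehicle with acetate (0.56), vehicle with etomoxir + SB204990 (0.60) and acetate with etomoxir + SB204990 (0.59). For the other pairs of groups it was -0.22 to 0.11. A correlation over genes cannot show an offset shared by all genes of a set. The replicate block gave 8 for acetate vs. vehicle (20.0%) and 5 for etomoxir + SB204990 + acetate vs. vehicle (14.3%), and changed no other count by over 1.5 times.

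Leaving out 1 library at a time gave 0 to 29 members for acetate vs. vehicle, 14 to 36 for etomoxir + acetate vs. etomoxir (14 without etomoxir + acetate set 1, with 28.8% of all genes, and 16 without etomoxir set 2, with 37.9%), 0 to 36 for etomoxir + SB204990 + acetate vs. etomoxir + SB204990, 37 to 38 for the average, 0 to 2 for etomoxir + SB204990 vs. vehicle (2 without its library of set 2, with 12.3% lower), 0 to 30 for etomoxir + SB204990 vs. etomoxir and 0 to 25 for etomoxir + SB204990 + acetate vs. vehicle, where it was 19 without the library of set 1 with all 3 agents (31.8%). For acetate vs. vehicle it was 7 without either library with all 3 agents (11.9% in both cases). Etomoxir vs. vehicle and both interactions stayed at 0 in every alternative run.

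Under median-of-ratios scaling, which by construction centres the typical gene near 0, average acetate changes were negative in 18 of 38 members and 52.4% of all genes. Among the members described by their values per library, that scaling gave values below 0 for Psma8 (-0.21), Psmb7 (-0.0053), Psmb11 (-0.045), Psmc6 (-0.038), Psmd1 (-0.18), Psmg2 (-0.13), Psmb10 (-0.0017) and Psmb5 (-0.0015). Total-sum scaling gave -0.19 for Psma8, -0.029 for Psmb11, -0.020 for Psmc6, -0.16 for Psmd1 and -0.11 for Psmg2. Median-of-ratios scaling of the start intervals gave -0.072 for Psmb7, -0.078 for Psmc6, -0.17 for Psmd1, -0.15 for Psmg2, -0.0017 for Psmb10 and -0.016 for Psmb5. The starts of Psma2 and Psmd3 are not in this list, and their changes as deposited were below the median of all starts (0.61). Medians moved by over the SD between sets in 56 of 259 recalculations, mostly under other scalings. The share that member intervals held of a library's reads in intervals was 0.17% on average over libraries and 0.095% with only spanning intervals.

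With 2 libraries per treatment, and a factor that multiplies every interval of a library alike, an error in 1 factor moves all genes of that library together and cannot be told apart from a global change. Reads limited Psma2, Psme4 and Psmd3, whose named intervals held means under 10.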
